A study of Homo sapiens with 9 samples.

Results

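γH2AX ChIP-seq peaks of cells exposed to methyl methanesulfonate (MMS) were compared with those of untreated cells, as 2 peak lists per condition out of the 8 lists of the series. All cells came from a single established human lymphoblastoid line of B lymphocytes, called GM09027A in the sample labels and GM07027 in the study's methods. MMS was given at 200 μM for 24 h, and the untreated cells received no agent. The other 4 lists, used only for reference, came from cells kept for 24 h with 2 mM hydroxyurea (HU) or with 0.1 μg/mL aphidicolin (APH). On chromosomes 1 to 22 the lists held 4779 and 4327 peaks in untreated replicates 1 and 2 and 12202 and 10465 peaks in MMS replicates 1 and 2, which is 31773 of the 213253 autosomal peaks of all 8 lists. Peaks were taken as shares of their own list, because the read depth behind a list is unknown and the lists differ in size.

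MMS is an alkylating agent that methylates DNA bases, chiefly guanine and adenine. Methylated adenine blocks replicative polymerases, and the excision of methylated bases passes through strand breaks, so both stalled forks and repair intermediates can follow exposure. At such sites the kinases ATR, ATM and DNA-PK phosphorylate the histone variant H2AX on its tail, and the modified form, γH2AX, spreads over the surrounding chromatin. A peak is therefore a stretch with more precipitated DNA than the input background, and its edges need not coincide with a lesion.

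Most peaks in these lists were weak. The median fold enrichment over input given by the authors' peak caller was 2.64 and 2.61 in the untreated lists and 2.64 in both MMS lists, and the median width lay between 519 and 550 bp. Only 42 and 22 untreated peaks and 20 peaks in each MMS list had a q-value of at most 0.05. By an overlap of at least 1 bp, 5.98% of the peaks of MMS replicate 1 were found in replicate 2 and 6.97% of replicate 2 in replicate 1, against 15.99% and 19.4% for the untreated pair. Positions of single peaks were thus poorly shared between replicates, whereas counts over 2723 bins of 1 Mb had a Spearman's rank correlation of 0.819 for the MMS pair. The untreated pair gave 0.661, no higher than the 0.663 to 0.721 of the pairs of an untreated and an MMS list (a description over bins of the same genome).

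The sites below show what a peak of each kind covers. The first 3 are the peaks of highest mean fold enrichment among the 293 that were found in both MMS lists inside a protein-coding gene with no untreated peak within 10 kb. The last is 1 of the 2 highest among the 174 found in both untreated lists with no MMS peak within 10 kb. Each run holds 150 bases of the plus strand of GRCh38 around the middle of the stretch shared by the replicates, with capitals for bases covered in both replicates.
FAM53B, MMS, chr10:124658152-124658301: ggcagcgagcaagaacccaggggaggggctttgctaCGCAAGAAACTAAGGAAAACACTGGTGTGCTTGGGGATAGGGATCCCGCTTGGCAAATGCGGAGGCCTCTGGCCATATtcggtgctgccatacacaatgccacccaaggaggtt
SSRP1, MMS, chr11:57331950-57332099: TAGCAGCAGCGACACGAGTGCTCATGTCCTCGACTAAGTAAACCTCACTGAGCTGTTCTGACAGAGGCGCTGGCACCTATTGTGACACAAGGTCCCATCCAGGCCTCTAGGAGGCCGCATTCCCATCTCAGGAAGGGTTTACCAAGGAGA
SNX29, MMS, chr16:12172688-12172837: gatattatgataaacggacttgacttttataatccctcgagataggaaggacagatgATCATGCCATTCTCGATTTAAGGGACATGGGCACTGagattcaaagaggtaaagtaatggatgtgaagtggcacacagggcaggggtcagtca
no coding gene, untreated, chr22:50630000-50630149: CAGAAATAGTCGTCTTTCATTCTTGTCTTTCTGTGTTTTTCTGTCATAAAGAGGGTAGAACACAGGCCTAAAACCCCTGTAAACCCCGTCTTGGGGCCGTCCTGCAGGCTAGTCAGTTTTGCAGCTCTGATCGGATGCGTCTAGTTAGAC
All 3 MMS sites were intronic in the GENCODE annotation. The FAM53B site had fold enrichments of 3.52 and 3.12 in the MMS replicates and shared 78 bp. The site in SSRP1, which encodes a subunit of the histone chaperone FACT, had 2.77 and 3.62 and shared 229 bp. The site in SNX29, a sorting nexin gene, had 3.34 and 2.74 and shared 36 bp. The untreated site lay outside coding genes near the end of chromosome 22, with 3.14 and 3.29. The base composition of the windows shown ranged from 43.3% GC at SNX29 to 56.7% GC at FAM53B. Of the 174 untreated sites, 29.3% lay in a coding gene body.

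Peaks under MMS lay more often in protein-coding genes. Of the autosomal peaks, 51.3% in each untreated list (95% Wilson interval 49.9 to 52.7 and 49.8 to 52.8) and 65.8% and 65.9% in the MMS lists (64.9 to 66.6 and 65.0 to 66.8) overlapped a gene body, the span from the first to the last base of a RefSeq protein-coding gene. These intervals cover counting error only. Gene bodies make up 43.9% of the assembled autosomal bases, which is the share an even spread would give. Both MMS lists lay above both untreated lists by a mean of 14.5 percentage points, far beyond the difference between replicates (exact permutation test, two-sided, p = 0.333, adjusted p = 0.5 over 3 tests). With 2 lists against 2, 0.333 is the smallest p that this permutation test can give.

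The share was 55.9% and 55.6% under APH and 56.4% and 56.3% under HU, so in this count of single peaks the MMS lists were also the highest of the series. The mean of the MMS lists exceeded that of the 6 other lists by 11.4 percentage points (p = 0.0357 in a two-sided exact permutation test, which 2 lists against 6 cannot go below). The high gene-body share of the MMS lists was known when the comparison was chosen, so neither p is independent evidence of it. When peaks within 10 kb of each other were joined, the excess over the 6 lists fell to 5.53 points and no longer passed (exact permutation test, p = 0.429). The means were then 64.9% under MMS and 59.4% over the 6 lists, next to 51.0% in untreated cells. In that setting the MMS lists did not stand apart from the series as a whole, while the excess over untreated cells was 13.9 points.

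**Figure D1:**
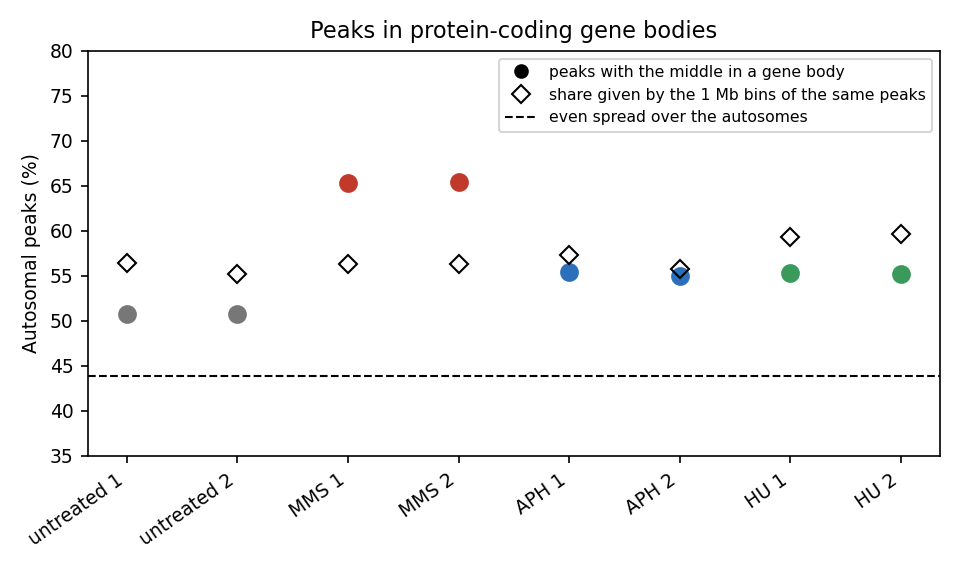
Share of autosomal peaks with their middle in a protein-coding gene body in each of the 8 lists (filled points, percent), with the share given by the gene coverage of the 1 Mb bins that hold the same peaks (diamonds) and by an even spread (dashed line, 43.9%). Both MMS points stand near 65% and above their diamonds, whereas the untreated points stand near 51% and below theirs.

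The difference lay within megabases and not between them. If the peaks of a list were placed evenly within their own 1 Mb bins, 56.4% and 55.2% of the untreated peaks and 56.4% and 56.3% of the MMS peaks would have their middle in a gene body. The observed share minus this value was −5.70 and −4.49 percentage points in untreated cells and 8.93 and 9.13 points under MMS. When bins were ranked by gene coverage into 4 equal classes, in class 1, of the lowest coverage, the gene-body share was 10.3% and 8.87% in untreated cells and 17.8% and 17.6% under MMS. In class 4 it was 67.7% and 68.7% against 81.3% and 81.2%. Both MMS lists exceeded both untreated lists in all 4 classes of gene coverage, and also in all 4 equal classes of peak strength ranked within each list. In the weakest class of peaks the shares were 51.2% and 49.6% against 62.7% and 63.2%, and in the strongest class 52.7% and 53.9% against 67.8% and 69.0%. MMS peaks found in both replicates had a higher gene-body share than those found in one, with 77.7% against 65.0% in replicate 1 and 77.2% against 65.0% in replicate 2. The corresponding untreated shares were 54.1% against 50.8% and 55.0% against 50.4%. Peaks found in both replicates also lay more often within 1 Mb of a chromosome end. This held for 29.5% against 4.59% and 29.2% against 4.21% of MMS peaks, and for 66.5% against 11.5% and 68.9% against 8.92% of untreated peaks. Whether position accounts for the higher gene-body share was not tested.

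The difference held on most chromosomes. On 20 of the 22 autosomes both MMS shares exceeded both untreated shares. The mean difference was widest on chromosome 20, where 39.8% and 40% of untreated peaks and 66.4% and 61.4% of MMS peaks lay in genes, followed by chromosomes 9 and 14. The lists overlapped on chromosome 18 (63.3% and 57.5% against 63.0% and 65.6%). On chromosome 21 the order was opposite, with 70.8% and 73.2% in untreated cells and 69.8% and 68.0% under MMS.

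**Figure D2:**
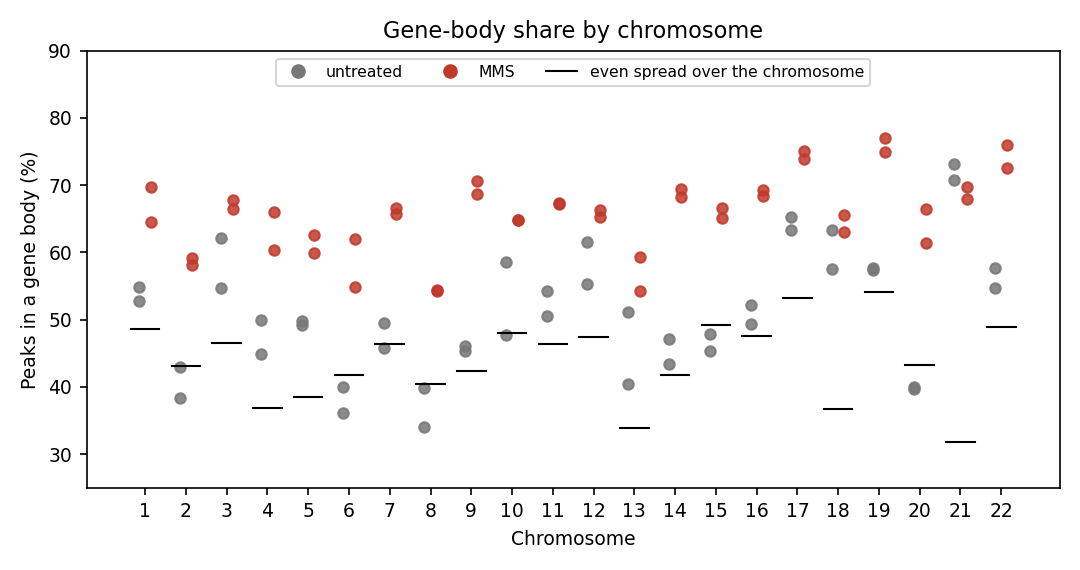
Share of peaks in a protein-coding gene body on each autosome (percent), with 1 point per untreated list (grey) and per MMS list (red) and a black line at the gene coverage of the chromosome. The red points lie above the grey points on 20 chromosomes, overlap them on chromosome 18 and lie below them on chromosome 21.

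Introns held most of the additional peaks. The middle of the peak lay in an intron for 45.6% and 46.3% of untreated peaks and for 59.4% and 59.9% of MMS peaks. It lay in coding sequence for 2.26% and 1.94% against 2.66% and 2.54%, where an even spread would give 1.24%. Peaks in a non-coding gene alone made up 13.1% and 13.2% of the untreated and 9.97% and 10.1% of the MMS lists, and peaks in no annotated gene 35.5% in both untreated lists against 24.3% and 24.1%. At gene starts the order was the other way in the whole lists, but not in all settings. Peaks within 1 kb of a GENCODE start of a coding gene made up 1.34% and 1.46% of the untreated and 1.11% and 0.994% of the MMS lists, near the 1.27% of an even spread (exact permutation test, two-sided, p = 0.333, adjusted p = 0.5). This order turned when only peaks enriched 3-fold or more were counted, where the MMS mean was 0.51 percentage points higher. Among the stronger 50% of each list, and within 5 kb of a start, the conditions overlapped (exact permutation test, p = 0.667 for both). The mean GC content of the 500 bp around the peak was 46.5% and 45.4% in untreated cells and 45.8% and 44.2% under MMS, so the lists overlapped (exact permutation test, two-sided, p = 0.667, adjusted p = 0.667). All values were above the 41.0% of the autosomes.

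Along the gene, MMS peaks were denser from end to end. Density is given as the ratio of the peaks observed to those of an even spread. With GENCODE coding genes of at least 10 kb cut into 10 equal parts, it was 1.20 and 1.22 in untreated cells and 1.71 and 1.81 under MMS in part 1, at the start, and in part 10 1.15 and 1.23 against 1.55 and 1.46. Both MMS lists exceeded both untreated lists in all 10 parts. Around genes of at least 100 kb the order varied with the window. From 20 to 10 kb before the start the density was 1.61 and 1.67 in untreated cells and 1.17 and 1.37 under MMS, and from 10 to 20 kb inside the gene it was 0.740 and 0.963 against 1.48 and 1.55. In the 1 kb after the gene end it was 0.822 and 1.09 against 1.74 and 1.43, and from 10 to 20 kb after the end 1.76 and 1.63 against 1.55 and 1.52. In the 1 kb after the start all 4 lists were low, between 0.182 and 0.376, and the conditions overlapped.

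**Figure D3:**
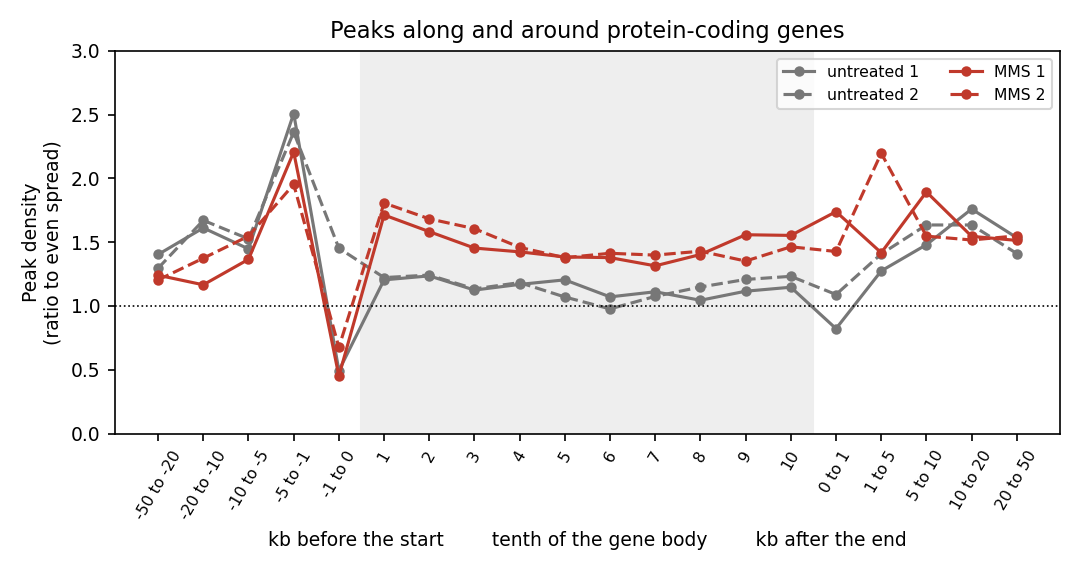
Peak density relative to an even spread (ratio, dotted line at 1) in windows before the start and after the end of coding genes of at least 100 kb and, in the shaded part, in 10 equal parts of coding genes of at least 10 kb. Both MMS lines lie above both untreated lines in each part of the gene body, and below them from 50 to 10 kb before the start.

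Genes of most lengths took part. Relative to an even spread, the density in genes of 10 to 50 kb was 2.36 and 1.99 in untreated cells and 2.86 and 2.57 under MMS. In genes of 200 to 500 kb it was 0.801 and 0.903 against 1.09 and 1.25, and in genes over 500 kb 0.294 and 0.376 against 0.433 and 0.531. The MMS lists were higher in 5 of the 6 length classes, and overlapped the untreated lists in genes under 10 kb (3.17 and 2.20 against 3.47 and 2.99). Even under MMS the longest genes held fewer peaks per base than an even spread would place there.

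Chromosome ends showed the opposite difference. Within 1 Mb of the end of a chromosome sequence lay 20.3% and 20.6% of untreated peaks (95% Wilson interval 19.2 to 21.5 and 19.4 to 21.8) but 6.07% and 5.95% of MMS peaks (5.66 to 6.51 and 5.52 to 6.42), where an even spread would give 1.35%. The values were 8.93% and 9.92% under APH and 1.62% and 1.78% under HU. In numbers, 971 and 890 untreated peaks against 741 and 623 MMS peaks lay in these segments, although the MMS lists were longer. At 39 chromosome ends at least 1 of the 4 lists had a peak. The MMS share was below the untreated share at 25 of them and above it at 1, and at 17 the number of peaks itself was lower in both MMS lists. The first Mb of chromosome 2 held 44 and 35 untreated peaks and 5 and 4 MMS peaks, whereas the first Mb of chromosome 9 held 119 and 143 against 134 and 148. Since the shares of a list add up to a whole, fewer peaks at ends raise the shares elsewhere. The gene-body difference was present both within 1 Mb of an end (64.2% and 64.9% against 78.4% and 77.7%) and beyond it (48.1% and 47.8% against 64.9% and 65.1%).

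Over 1 Mb bins the largest differences were losses of share at chromosome ends. Bins were kept when the mean of the 2 condition means was at least 3 peaks per 10000 autosomal peaks, which left 1040. A bin under this limit in either condition could be kept only through the other, and such a bin had to differ. Both MMS shares exceeded both untreated shares in 297 bins (28.6%) and lay below them in 171 bins (16.4%). When the shares were first centred on the median bin of each list, 195 bins were higher and 241 lower, so the balance of the 2 counts depends on the scaling. Most lower bins were lower in share only, since both MMS numbers of peaks were below both untreated numbers in 26 of the 171. The median difference over bins was 0.24 on the log2 scale. In a limma fit on log2(peaks per 10000 + 1), 17 bins were lower under MMS (1.63%) and 0 were higher (0%) at an adjusted p of 0.05. At an unadjusted p under 0.05 there were 66 higher and 59 lower bins. Of the 17 bins, 16 lay within 5 Mb of a chromosome end. Among them, the last bin of chromosome 16, from 90000001, had an MMS mean of 1.37 per 10000. It was kept through the untreated lists alone and had to be lower. Leaving out untreated replicate 1 or 2 left 0 bins (225 and 239 at an unadjusted p under 0.05), and leaving out MMS replicate 1 or 2 gave 26 and 9. With 1 list left in a condition, that list is assumed to vary like the other condition. No bin was called when the first and last 5 Mb of each chromosome were left out (73 at an unadjusted p under 0.05). Among peaks enriched 3-fold or more 118 bins were higher and 3 lower, and among the stronger 50% of each list 76 were higher and 22 lower. In these settings the median difference over all bins was 2.12 and 0.54 on the log2 scale, so the higher calls came with a shift of the bins as a whole. With equal numbers of the strongest peaks 0 bins were called (93 at an unadjusted p under 0.05). Among lower bins 31.6% lay within 5 Mb of an end, against 10.4% of higher bins and 13.4% of all bins kept. The higher and lower bins had similar median gene coverage (59.3% and 55.2%) and GC content (43.6% and 45.5%), next to 59.3% and 44.2% over all bins kept.

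The largest fall in share was in the second Mb of chromosome 9 (1000001 to 2000000), whose single coding gene with a start there is DMRT2, a transcription factor gene of the doublesex family. It held 150 and 124 untreated peaks and 17 and 20 MMS peaks, or a mean of 300.2 against 16.5 per 10000 (log2 difference −4.12, SE 0.20, limma adjusted p = 0.00014). The neighbouring first Mb, with DOCK8 and KANK1, fell less, from 249 and 330 to 110 and 141 per 10000 (limma adjusted p = 0.016). Both ends of chromosome 17 fell, the first Mb from 113 and 97 peaks to 82 and 60 and the bin from 82000001 to 83000000 from 104 and 82 to 63 and 55 (limma adjusted p = 0.0005 for both). The last bin of chromosome 21, from 46000001, had 77 and 72 against 64 and 46 peaks, that of chromosome 5, from 181000001, 42 and 46 against 9 and 7, and the first Mb of chromosome 12 had 44 and 39 against 23 and 18. The log2 difference in the first Mb of chromosome 2 was as large as in the second Mb of chromosome 9 within its error (log2 difference −4.14, SE 0.29, limma adjusted p = 0.0005). In every one of these bins the lists of the 2 conditions did not overlap in share. The shares under APH and HU were below both untreated shares in each of them too, so these falls were not particular to MMS. The second Mb of chromosome 9 held 31.7 and 73.5 peaks per 10000 under APH and 2.00 and 1.86 under HU.

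The 8 bins with the largest positive differences and no overlap of the lists lay more than 8 Mb from a chromosome end, and none passed the limma test. On chromosome 16 from 12000001 to 13000000, the bin of SNX29, there were 1 and 2 untreated and 23 and 16 MMS peaks (log2 difference 2.11, SE 0.49, limma adjusted p = 0.15). The ratio of the pooled shares was 5.22, with an exact counting interval of 1.66 to 26.4. On chromosome 3 from 13000001, around IQSEC1 and NUP210, there were 1 and 0 against 14 and 12 peaks, and on chromosome 10 from 124000001, around FAM53B and CTBP2, 3 and 1 against 18 and 14. The bin on chromosome 3 had an untreated mean of 1.05 per 10000, under the limit of 3. It was kept through the MMS lists alone and had to be higher. On chromosome 1 from 154000001, around KCNN3, 5 and 0 peaks stood against 26 and 15. On chromosome 5 from 10000001, around DAP, there were 5 and 2 against 22 and 19. The numbers were 4 and 6 against 31 and 17 on chromosome 11 from 72000001 around CLPB and NUMA1, 2 and 2 against 19 and 13 on chromosome 19 from 19000001 around GATAD2A, and 2 and 1 against 16 and 13 on chromosome 17 from 73000001 around SLC39A11.

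**Figure D4:**
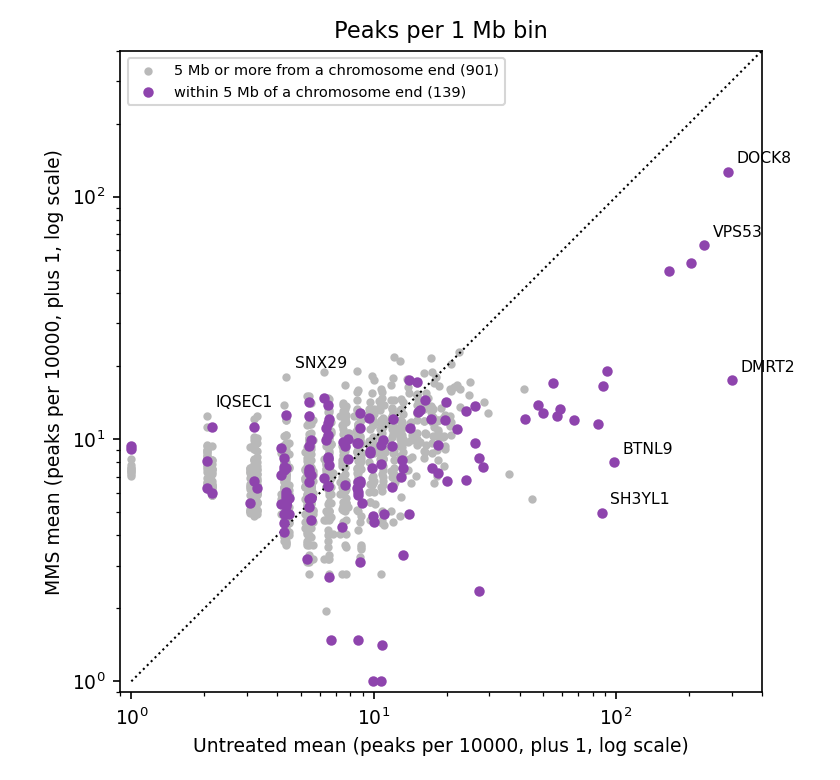
Mean peaks per 10000 autosomal peaks, plus 1, in the untreated lists (horizontal, log scale) and the MMS lists (vertical, log scale) for the 1040 bins kept, with bins within 5 Mb of a chromosome end in purple and leading genes of some bins written beside them. The 17 bins called lower in the limma fit lie below the dotted line of equality. Of these, 16 are purple, and the bin from 26000001 on chromosome 6 is grey. The labelled bins above the line on the left are grey.

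Few single genes held enough peaks for a test. A gene was kept at a mean of the condition means of at least 5 peaks per 10000, which 74 of 19126 coding genes reached. Both MMS shares exceeded both untreated shares in 7 genes (9.46%) and lay below them in 39 genes (52.7%). Of the lower genes 29 and of the higher genes 1 lay within 5 Mb of a chromosome end, next to 35 of all 74 (47.3%), and the median length was 122 kb and 463 kb, next to 250 kb over all 74. A gene can pass the limit through the condition in which its share is high, and such a gene had to differ in order to be kept. In the limma fit 2 genes were higher (2.70%) and 21 lower (28.4%). With peaks within 10 kb joined, 0 of 56 genes were called (10 at an unadjusted p under 0.05). Leaving out MMS replicate 1 gave 15 genes in all, and the counts without any other list ranged from 16 to 28. The filter favours genes at chromosome ends, where untreated peaks were dense, so the split of these 74 genes does not describe genes in general. Among the 7647 genes with at least 1 peak in any of the 4 lists, 1507 were higher (19.7%) and 374 lower (4.89%). These counts in turn favour rises, because a gene with few peaks is more easily missed in the shorter untreated lists. With the 4327 strongest peaks of each list, 410 of 5088 genes were higher (8.06%) and 225 lower (4.42%).

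The genes with a higher share included SNX29, TBC1D22A, FOXN3, ZFHX3, PLCG2 and KSR1. SNX29 and TBC1D22A had adjusted p-values under 0.05 but were kept through the MMS lists alone, so their direction was set by the filter and their p is no support for it. SNX29 had 1 and 0 untreated peaks and 16 and 15 MMS peaks, or 13.1 and 14.3 per 10000 under MMS. The ratio of the pooled shares was 12.5 (exact counting interval 2.08 to 508, which leaves out the spread between lists), with a limma adjusted p of 0.035. TBC1D22A, a gene of the Rab GTPase-activating family on chromosome 22, had 0 and 0 against 12 and 11 peaks, which is at least 3.08-fold higher against a floor of 3 peaks over both untreated lists (limma adjusted p = 0.00079). It lies within 5 Mb of the chromosome end. The forkhead repressor gene FOXN3 had 1 and 1 against 8 and 10. The homeobox gene ZFHX3 had 1 and 1 against 10 and 8. PLCG2, the phospholipase that acts below the B cell receptor, had 3 and 0 against 8 and 10, and KSR1, a scaffold of the RAF-MEK-ERK cascade, 1 and 2 against 10 and 6. The limma adjusted p of the last 4 lay between 0.11 and 0.35. Their untreated means (2.20, 2.20, 3.14 and 3.36 per 10000) were also under the limit of 5. A higher MMS share was needed for them to be kept, so the lack of overlap of their lists is no support for a rise. ZFHX3 held 17.6 and 14.3 peaks per 10000 under APH, next to 8.20 and 7.64 under MMS.

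The 10 genes with the largest falls all lay within 1 Mb of a chromosome end. In all 10 the shares under APH and HU were also below both untreated shares, so these falls were not particular to MMS. DOCK8, for example, held 28.9 and 36.4 peaks per 10000 under APH and 2.25 and 3.43 under HU, next to 39.3 and 53.5 under MMS. NXN, the nucleoredoxin gene on chromosome 17, went from 40 and 28 peaks to 11 and 3, which is a pooled share 12.1-fold lower (log2 difference −3.58, SE 0.47, limma adjusted p = 0.004). PLEKHG4B on chromosome 5, went from 20 and 19 to 4 and 3, and LOC124900629, which overlaps it and shares its peaks in part, from 20 and 18 to 5 and 2. PARD6G, a cell polarity gene on chromosome 18, had 17 and 20 untreated peaks and 4 in each MMS list. DIP2A and the pericentrin gene PCNT on chromosome 21 had 33 and 38 against 24 and 16 and 19 and 12 against 13 and 8 peaks. DMRT1, a regulator of testis development on chromosome 9, had 28 in each untreated list and 12 and 17 under MMS. In other genes the numbers of peaks changed less than the shares. DOCK8, an exchange factor for CDC42 in lymphocytes, had 50 and 53 untreated and 48 and 56 MMS peaks, or a pooled share 2.47-fold lower. TBCD, which encodes a tubulin folding cofactor, had 44 and 41 against 38 and 33, and VPS53, a subunit of the GARP tethering complex, 40 and 38 against 36 and 30. All 10 passed the limma test (adjusted p at most 0.008), and none did with peaks within 10 kb joined. PLEKHG4B, LOC124900629 and PARD6G had MMS means under the limit of 5 per 10000 (3.07, 3.00 and 3.55). These genes were kept through the untreated lists alone, so their direction was set by the filter and their p is no support for it. In 20 of the 39 lower genes both MMS numbers were below both untreated numbers.

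**Figure D5:**
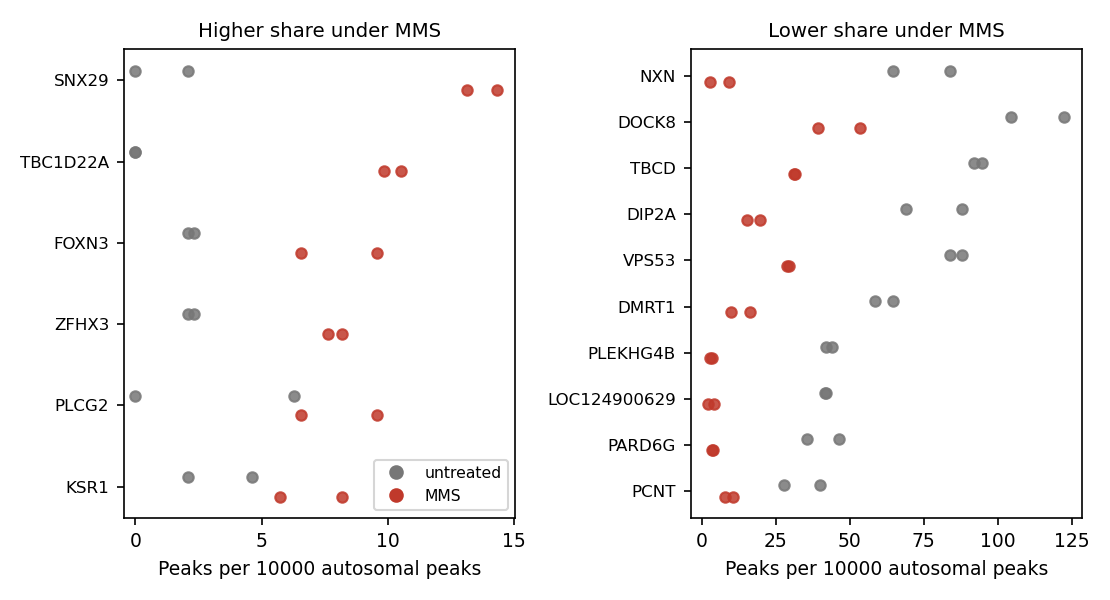
Peaks per 10000 autosomal peaks in each untreated list (grey) and MMS list (red) for 6 genes with a higher share under MMS (left) and the 10 genes with the largest falls (right, on a wider scale). No grey point reaches a red point in any gene shown.

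At a lower limit of 2 peaks per 10000, added after the data were seen, 466 genes were kept, of which 108 were higher (23.2%) and 149 lower (32%). In the limma fit 19 were higher (4.08%) and 28 lower (6.01%). Of the 19, 18 had no peak in either untreated list, and the remaining gene, SNX29, had an untreated mean of 1.05 per 10000, under the limit. All 19 thus passed the limit through the MMS lists alone and had to differ in order to be kept, so their p is no support for a rise. Among them, chosen after their values were seen, KCNN3, a calcium-activated potassium channel gene, had 14 and 7 MMS peaks and RPTOR, a subunit of the growth regulator mTORC1, 8 and 8. BCL2L1, which encodes an inhibitor of apoptosis, had 5 and 5. The adjusted p of these genes was 0.044. Of the 28 lower genes, 23 lay within 5 Mb of a chromosome end, next to 22.7% of all 466. No MMS peak was found in 13 of them, which were likewise kept through the untreated lists alone and had to differ, among them BTNL9 on chromosome 5 with 4 and 5 untreated peaks. The same held for YBEY, whose MMS mean was 0.48 per 10000.

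Gene lists are given as counts beside the 19.7% of genes with a peak that were higher and the 4.89% that were lower, and with their summed share in each list. With equal numbers of the strongest peaks these percentages were 8.06% and 4.42%, and the counts of most lists were smaller, as given for each. Over all coding genes the summed share itself was 5302 and 5306 per 10000 in untreated cells and 6778 and 6809 under MMS. A rise of a list's sum is to be read beside that rise. Of 28 large genes of common fragile sites, 21 had a peak, 7 were higher and 2 lower (4 and 2 of 21 with equal numbers). Their summed share was 48.1 and 55.5 per 10000 in untreated cells and 54.1 and 67.8 under MMS, so the conditions overlapped, while it was 238 and 124 under APH. Among them AUTS2 had 3 and 3 against 7 and 7 peaks and DAB1 3 and 3 against 5 and 7, and both overlapped in share. Over all 303 coding genes longer than 500 kb the summed share was 268 and 344 in untreated cells and 395 and 484 under MMS, with 65 of 219 genes higher and 8 lower (24 and 7 of 171 with equal numbers).

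Genes of the repair of methylated and oxidized bases held few peaks. Of 27 found in the annotation 18 had a peak, 5 were higher and 1 lower (2 and 1 of 12 with equal numbers), and the sum was 8.37 and 4.62 against 19.7 and 15.3 per 10000. ALKBH3, a dioxygenase that removes methyl groups from alkylated bases, had 0 and 0 against 1 and 4 peaks. The glycosylase gene OGG1 had 2 and 0 against 3 and 1, SMUG1 0 and 1 against 4 and 0, and HMGB1 1 and 1 against 1 and 2. Of 33 genes of the fork checkpoint and of lesion bypass, 21 had a peak, 2 were higher and 0 lower (1 and 0 of 11 with equal numbers). Their sum was 4.18 and 2.31 against 10.7 and 19.1 per 10000, with no overlap between conditions. RAD18, the ubiquitin ligase that opens lesion bypass, had 0 and 0 against 0 and 4 peaks, SMARCAL1, a fork remodelling enzyme, 0 and 0 against 3 and 1, and CLSPN and FANCI had 1 and 0 against 0 and 3 and 2 and 1. With so few peaks, differences at these genes were not detectable one by one.

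Of 35 genes of B cell identity and signalling, 21 had a peak, 6 were higher and 3 lower (2 and 1 of 17 with equal numbers), with a sum of 25.1 and 30.0 against 35.2 and 31.5 per 10000. PAX5, the transcription factor that holds B cell identity, had 1 and 0 untreated and 8 and 6 MMS peaks, and PRKCB, a kinase below the B cell receptor, 2 and 1 against 7 and 7. Neither was called at the limit of 2 peaks per 10000 (limma adjusted p = 0.18 for PAX5 and 0.36 for PRKCB). CIITA (1 and 2 against 6 and 1) and FOXP1 (0 and 3 against 1 and 5) overlapped in share. Zinc finger genes of chromosome 19, a clustered family of transcriptional repressors, gave 16 higher and 0 lower of 90 genes with a peak (17.8% higher, below the share over all genes, and 4 and 0 of 49 with equal numbers), and their sum was 23.02 and 11.6 against 56.5 and 46.8 per 10000, with no overlap between conditions. Among them ZNF333 had 0 and 0 against 2 and 2 peaks and ZNF529 0 and 0 against 1 and 4, while ZNF324B and ZNF132 overlapped. The cytoplasmic ribosomal protein genes gave 9 higher and 1 lower of 28 (1 and 1 of 15 with equal numbers), with sums of 6.28 and 2.31 against 16.4 and 21.0. RPL3, RPL28 and RPL26L1 had no untreated peak and 3 MMS peaks each over both lists, and RPS29 had 2 and 1 against 1 and 2.

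In the remaining lists the sums were lower under MMS or close to 0. Of 32 genes listed for the end of chromosome 9p, 20 had a peak, 3 were higher and 6 lower (0 and 5 of 17 with equal numbers), and the sum was 249 and 300.4 against 111 and 151 per 10000. DOCK8 and DMRT1 were lower, while KANK1 (25 and 38 against 53 and 57 peaks) and KDM4C (2 and 1 against 7 and 3) overlapped. Of 391 olfactory receptor genes only 15 had a peak, 2 were higher and 2 lower (0 and 2 of 10 with equal numbers), and their sum was 23.02 and 18.5 against 5.74 and 3.82. OR2V1 and OR2V2, which lie at the end of chromosome 5, held 4 and 3 and 3 and 3 untreated peaks and none under MMS. OR1F1 had 2 and 0 against none, and OR2T11 none against 1 and 1. Of 69 replication-dependent histone genes, 1 had a peak, H4C15, with 1 in MMS replicate 2. The median difference over members with a peak was 0.41 to 0.48 peaks per 10000 in each list but that of chromosome 9p (−0.12), next to 0.41 over all genes with a peak, where a single added peak sets the value.

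Peaks were also spread over more of the genome under MMS. They occupied 1224 and 1344 of the 2784 autosomal bins in untreated cells and 2012 and 2013 under MMS, which the longer lists allow. The densest 1% of bins, 28 in number, held 23.8% and 23.2% of untreated peaks and 7.52% and 7.29% of MMS peaks. Coding genes with a peak in both MMS lists numbered 2339, of which 1415 had none in either untreated list, and 531 had a peak in both untreated lists, of which 90 had none under MMS. With equal numbers of the strongest peaks, 377 genes had a peak in both MMS lists and no untreated peak, and 176 the reverse.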

How the data were processed

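γH2AX ChIP-seq was performed on 2 replicates per condition, from independent treatments and ChIP experiments. Per the study's methods, the authors mapped trimmed reads with Bowtie2 (build GRCh38), used SAMtools to discard duplicates and poorly mapped reads, and ran MACS2 in broad mode for every replicate separately with input as background. Tool versions are not given in the sources used here. The deposited lists give peak coordinates, the enrichment over input as a ratio, significance as −log10 of p and of q, and a score that was not used here. Read depth is unknown, the input library was not analysed here, and regions below the peak threshold are not in a list.

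Autosomal peaks were counted per 1 Mb bin (by the middle of the peak) and per RefSeq protein-coding gene (GRCh38.p14, overlap of at least 1 bp) and expressed per 10000 autosomal peaks of the list. Starts, exons and strands came from GENCODE release 44. Bins were kept at a mean of condition means of at least 3 and genes at 5 per 10000. Summary shares were compared by exact permutation of the lists, and bins and genes with limma 3.58.1 (R 4.3.3) with a mean-variance trend on log2(peaks per 10000 + 1) and Benjamini-Hochberg adjustment over all features kept. This test was checked on simulated lists. Named genes and bins were those with non-overlapping lists and the largest changes of the mean share (10 genes and 8 bins in each direction), plus up to 4 members with the most peaks of each gene list. Members, rules and lists were chosen with earlier results of these data known. Zinc finger, histone, olfactory receptor and ribosomal protein genes were matched by symbol. Some named items are not reported here.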

Additional observations from a re-analysis of the deposited data

How the results depend on the processing

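The higher gene-body share under MMS kept its direction, without overlap of the lists, under the 14 alternatives, with differences from 11.3 percentage points (coding and non-coding genes) to 16.4 (equal numbers of the strongest peaks). Leaving out 1 list gave 14.4 to 14.6. Against the 6 other lists the difference was 5.53 with peaks within 10 kb joined, and 11.3 to 11.4 without 1 MMS list, where 1 list against 6 cannot pass. The share within 1 kb of a start turned to 0.51 points higher among peaks enriched 3-fold or more, and GC content kept its direction in all 11 alternatives.

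Counts of bins changed with the settings, in part because another number of bins was tested. Higher bins numbered 513 at 500 kb, 171 at 2 Mb, 737 with no filter, 107 with the filter doubled, 182 with equal numbers, 118 at an enrichment of 3-fold or more and 195 with centred shares. Lower bins numbered 349 at 500 kb, 87 at 2 Mb and 18 at an enrichment of 3-fold or more. Without 1 list, which is easier to clear, 403 to 501 were higher and 254 to 370 lower. The limma fit called 11 bins with no filter, 30 with the filter doubled, 98 among the stronger 50% of peaks, 0 with equal numbers (93 at an unadjusted p under 0.05), 121 at an enrichment of 3-fold or more, 2 with joined peaks, and 0 without the first and last 5 Mb of each chromosome (73 at an unadjusted p under 0.05). Of the 98 and 121 bins, 76 and 118 were higher under MMS, unlike the 0 of the whole lists, and the median log2 difference over bins was 0.54 and 2.12 there. Without 1 list it called 0 to 26.

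Higher genes numbered 1507 with no filter, 0 with the filter doubled, 33 at an enrichment of 3-fold or more, 108 at 2 per 10000 and 410 with no filter and equal numbers. Lower genes numbered 374, 15, 25, 149 and 225 under the same settings. The limma fit called 2 with no filter, 14 with the filter doubled, 47 at an enrichment of 3-fold or more, 0 with joined peaks (10 at an unadjusted p under 0.05) and 47 at 2 per 10000. Without 1 list, 11 to 15 genes were higher, 44 to 48 lower and 15 to 28 called by limma. Where a cause is not named above, the cause was not tested.

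Replicate numbers did not pair the shares of bins (correlation of deviations 0.067 over 1040 bins). Mean GC content, however, was higher in replicate 1 of the untreated (46.5% and 45.4%), MMS (45.8% and 44.2%) and APH lists (47.2% and 46.0%). It was lower in replicate 1 of HU (44.2% and 44.7%). The share within 5 kb of a start was ordered alike in each condition. Taken by replicate number, both measures were lower under MMS than in untreated cells in both pairs. With the replicate block the gene-body difference was 14.5 (exact permutation p = 0.5, the smallest possible), 384 bins were higher and 233 lower, 10 genes were higher and 44 lower, and limma called 19 bins and 23 genes. The unknown read depth limits all comparisons of peak numbers, and the exact permutation test of 2 lists against 2 cannot pass 0.05.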

Other observations

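One of the 17 bins lower under MMS in the limma fit lay far from a chromosome end, a bin named after its values were seen. It spans 26000001 to 27000000 on chromosome 6, the region of a large cluster of histone genes, and held 15 and 17 untreated and 8 and 6 MMS peaks (log2 difference −2.34, SE 0.34, limma adjusted p = 0.015). The call was lost without the first and last 5 Mb of each chromosome (smallest adjusted p of any bin 0.28) and with equal numbers of the strongest peaks (0.16). In shares this was a mean of 35.3 against 6.14 per 10000. None of these peaks overlapped a replication-dependent histone gene body, since the only such gene with a peak in the 4 lists was H4C15 on chromosome 1.

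Peaks outside gene bodies lay farther from genes under MMS. Their median distance to the nearest coding gene was 15.5 and 18.3 kb in untreated cells and 20.02 and 22.7 kb under MMS, and 39.3% and 36.9% against 36.2% and 34.3% of them lay within 10 kb of one. MMS peaks that overlapped an untreated peak made up 7.03% and 6.67% of the lists. Of these, 48.8% and 53.6% lay within 1 Mb of a chromosome end, against 2.84% and 2.55% of the MMS peaks without an untreated partner. Their gene-body shares were 64.8% and 65.0%, next to 65.8% and 65.9% for the others. Untreated peaks with an MMS partner had gene-body shares of 63.2% and 65.3%, and those without 49.0% and 48.6%.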
